A study of Mus musculus with 10 samples.

Results

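Of the 18194 genes read on the arrays, 3479 separated the intestine from liver and spleen without overlap. For 2311 of them (12.7% of all genes) the lowest of 6 intestinal signals, from jejunum, ileum and distal colon at both ages, was above the highest of the 4 liver and spleen signals. For the other 1168 (6.42%) the lowest liver or spleen signal was above the highest intestinal one. The rule reads the same signals that are described here, so the contrast between intestine and liver and spleen is a description and has no test. Rules of the same kind for a single organ, with both arrays of that organ above all the others, held for 3179 genes in liver and 3575 in spleen.

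The RNA came from male ICR mice, an outbred stock, kept in single cages under specific-pathogen-free conditions and fed the AIN-93 diet. Jejunum, ileum, distal colon, liver and spleen were taken from 9 mice aged 28 months, which came from the breeder at 8 months of age, and from 6 mice aged 4 months, which came at 2 months. RNA of the mice was pooled in equal parts for each tissue and age, so each of the 10 groups is 1 array of pooled RNA. The labels do not give whether the pieces of intestine were the full wall or the mucosa alone. The Affymetrix mouse genome array used here reads each transcript near its 3′ end with sets of short probes, and the signal has arbitrary units. The spread between mice is lost in the pools.

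The lining of the intestine is a single layer of epithelial cells that renews itself from crypts and holds absorptive enterocytes, goblet cells that secrete mucus and enteroendocrine cells that secrete hormones. Around it lie connective tissue, smooth muscle and a nervous system of its own. Liver and spleen have no such lining, but both filter blood through wide, leaky vessels called sinusoids, hold resident macrophages that take up worn red cells, and recycle their iron. Liver parenchyma is itself epithelial, while spleen is a lymphoid and blood-forming organ in the mouse.

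A floor was set at the median of all signals, 44.5 units, and signals under it were raised to it before a fold was taken. Among the genes higher in the intestine 1984 had all 6 intestinal signals above the floor, and the other 327 had at least 1 at or below it. A gap of 2-fold or more, taken as the lowest intestinal signal over the highest of liver and spleen, was found for 525 genes (2.89% of all genes), and for 173 of these liver and spleen lay at or below the floor on all 4 arrays. In the reverse direction 938 of 1168 genes lay above the floor in liver and spleen throughout, 74 had a gap of 2-fold or more (0.407%), and 13 of those were at or below the floor in all intestinal arrays. The gaps also differed in size, as the plot of genes by gap size shows. In the intestine the widest gap was at least 157-fold and 109 genes reached 10-fold, whereas in liver and spleen the widest was at least 23.0-fold and 3 genes reached 10-fold.

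**Figure D1:**
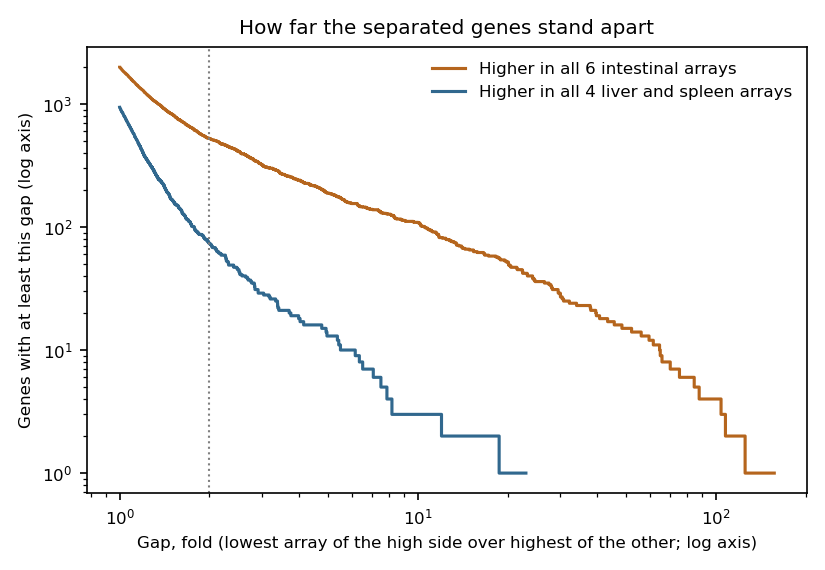
Number of genes (vertical, log axis) whose gap reaches a given fold (horizontal, log axis), for genes higher in all 6 intestinal arrays and for genes higher in all 4 liver and spleen arrays, with the lower side raised to the floor. The dotted line marks the 2-fold gap, passed by 525 and 74 genes.

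Many genes of the array were read by several probe sets, and each gene was described by its brightest. Of the 525 intestinal genes 202 had more than 1 probe set above the floor, and in 154 of these (76.2%) every one of them separated the tissues the same way. For the 74 liver and spleen genes it was 28 of 33 (84.8%). At the limit of the rule the differences were tiny. Ogfr was just inside, with 398.934 units on its lowest intestinal array against 398.933 on the highest liver or spleen array, and Aimp1 was just outside, with 988.592 against 988.614 units. On the other side Mterf3 was just inside, with a highest intestinal signal of 829.948 units and a lowest liver or spleen signal of 829.996, and Pigm just outside, with 101.84 and 101.815 units.

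The labels were checked against marker genes. Alb, serum albumin, had 20462 and 20169 units in the 28- and 4-month liver, with 72.3 as the highest signal of any other array. For Ms4a1, the B cell protein CD20, the spleen arrays held 4986 and 5694 units and no other exceeded 404. For Hoxb13, a posterior Hox gene, distal colon held 3511 and 2598 units and no other array exceeded 18.1. For Fabp6, the ileal bile acid binding protein, ileum held 14499.5 and 7995 units, against 20.9 and 18.8 in jejunum, but genes of the upper small intestine went against the label of the 4-month ileum, as described with the test of ileum against jejunum. Medians of the arrays lay within 5.42 to 5.52 on the log2 scale. Correlations over all genes, a description in which points share probes and scaling, were 0.985 to 0.992 between the ages of a tissue, 0.913 to 0.984 between intestinal segments, and 0.776 to 0.842 between intestine and liver or spleen. Between liver and spleen they were 0.748 to 0.767. Among 13973 genes above the floor on some array, the median difference between the mean of the intestine and that of liver and spleen was 0.01 on the log2 scale. Of these genes 15.7% separated with the intestine high and 7.43% with liver and spleen high, and 3.76% and 0.530% did so by 2-fold. These are the shares to hold beside the counts for gene lists given below. Counts without a fold do not ask that every array of the high side be above the floor, for lists or for all genes.

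The 15 genes with the widest gap towards the intestine, among those whose probe sets all separated the same way, were mostly secreted and surface proteins of its epithelium. Lypd8, a surface protein that keeps bacteria away from the colonic epithelium, read 6978 to 13044 units in the intestine (median 7457). It read 19.7 and 18.52 units in liver and 15.9 and 15.7 units in spleen at 28 and 4 months. All intestinal arrays were high, both distal colon arrays the highest, and liver and spleen were below the floor, so the gap was at least 157-fold.

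Krt19, a keratin of simple epithelia, read 6232 to 9260.0 units in the intestine (median 7417), against 49.8 and 40 units in liver and 28.4 and 23.8 units in spleen at 28 and 4 months. Its gap was 125-fold, with the 28-month liver array as the only liver or spleen array above the floor. Cldn7, a claudin of the junctions between epithelial cells, read 4786 to 7297 units in the intestine (median 6085). Liver and spleen were under the floor for Cldn7 at 21.9 to 35.9 units, and the gap was at least 108-fold. These signals were even along the intestine, with less than 2-fold between the lowest and highest array for each gene.

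Next in order came proteins of mucus. Clca1, a protein that goblet cells secrete with mucin, read 4627 to 7823 units in the intestine (median 6273), against 12.4 and 12.7 units in liver and 10.48 and 10.6 units in spleen at 28 and 4 months. Muc2, the mucin that forms the intestinal gel, read 3908 to 9199 units in the intestine (median 6429), against 24.6 and 29.01 units in liver and 20.7 and 20.8 units in spleen. The groups did not come near each other, and the lowest intestinal array for both genes was the 28-month jejunum. The gaps were at least 104-fold for Clca1 and at least 87.8-fold for Muc2.

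The next genes with a known role had gaps above 50-fold. They included Agr2 (at least 75.4-fold), a chaperone needed to fold mucin, Spink4 (at least 70.3-fold), a peptide of goblet cells, Ckmt1 (at least 65.9-fold), the mitochondrial creatine kinase, and Lgals4 (65.04-fold), a galectin of the brush border, along with the membrane mucins Muc3 (at least 64.7-fold) and Muc13 (56.1-fold) and the lectin Reg4 (52.1-fold). Klf5, a transcription factor of dividing epithelium, was among the most even of them along the gut. It read 2742 to 3801 units in the intestine (median 3194), against 18.9 and 20.7 units in liver and 38.4 and 32.6 units in spleen at 28 and 4 months, a gap of at least 61.6-fold. Phgr1 (at least 59.6-fold) and 9130208D14Rik (at least 84.54-fold) complete the 15, and no role is given for them here. The heat map of the widest gaps shows these genes above the 15 of the other direction.

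**Figure D2:**
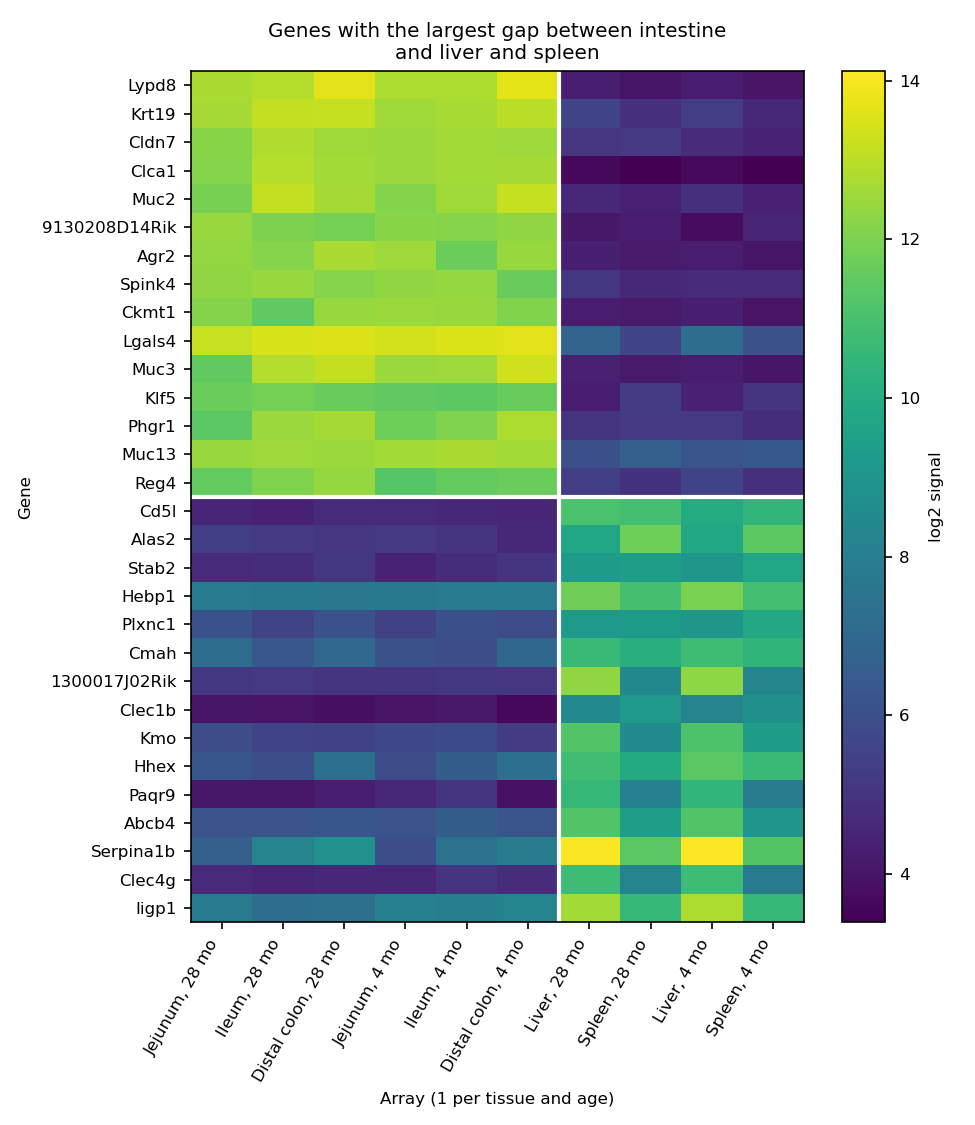
Log2 signal (colour) of the 15 genes with the widest gap in each direction (rows) on the 10 arrays (columns), intestine left of the white line and liver and spleen right of it. Genes of the upper block are bright on all 6 intestinal arrays, and those of the lower block are bright on all 4 liver and spleen arrays, several of them brighter in liver.

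Genes of epithelial identity stood on the intestinal side. Of 25 listed genes of intestinal epithelium above the floor, 24 were higher in all intestinal arrays, 22 of them by 2-fold, and none was higher in liver and spleen. The median difference of the list was 6.34 on the log2 scale. Vil1, which bundles actin in microvilli, read 1811 to 6487 units in the intestine (median 5284), against 23.8 and 20.7 units in liver and 17.2 and 15.1 units in spleen at 28 and 4 months, a gap of at least 40.7-fold. The exception was Krt18, whose ranges overlapped. Its partner keratin Krt8 did separate, by 3.03-fold, although it read 3478 and 1938 units in liver at 28 and 4 months, against 44.4 and 44.4 in spleen. Krt20 (at least 48.4-fold) and Krt7 (at least 10.2-fold), keratins that are not typical of hepatocytes, were below the floor in liver and spleen, and 10 of 15 genes of desmosomes and keratins separated towards the intestine.

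Transcription factors of endoderm were divided. Higher in all intestinal arrays were 12 of 23, and for the other 11 the ranges overlapped. Cdx1, a homeobox factor of the posterior endoderm, read 453 to 1047 units in the intestine (median 731), against 21.2 and 24.98 units in liver and 20.48 and 17.4 units in spleen at 28 and 4 months, a gap of at least 10.2-fold. Vdr, the vitamin D receptor, read 1290.1 to 2293 units in the intestine (median 1553), and liver and spleen stayed at or below 46.2 units (27.95-fold). Ehf, an epithelial ETS factor, separated by 10.98-fold. Among those whose ranges overlapped were Hnf4a, Foxa1, Foxa2, Foxa3, Gata4 and Nr5a2, factors that liver is also known to use. Summed over the list, the intestine carried 21032 to 23205 units, against 12402 and 12995 in liver and 1225 and 1196 in spleen at 28 and 4 months.

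Brush border genes, which build and tie together the microvilli of absorptive cells, were higher in all intestinal arrays for 17 of 19, and 11 had a 2-fold gap. Myo1a, a myosin of the microvillus, read 1684 to 4549 units in the intestine (median 3440.0), against 22.7 and 19.53 units in liver and 18.6 and 16.6 units in spleen at 28 and 4 months (at least 37.9-fold). Eps8l3, an actin-binding protein of the microvillus tip, separated by at least 24.3-fold. Cdhr2, a cadherin that links microvillus tips, read 1100.5 to 4345 units in the intestine (median 3724) and at most 31.0 units in liver and spleen (at least 24.7-fold). Its promoter is shown because, of 26 promoters searched, it was the 1 to hold the HNF1 motif. The 26 belong to 21 of the 24 genes of the epithelial list that were higher in the intestine. The motif is GTTAAT, any base, then ATT, and a factor of liver and intestine binds it. The RefSeq promoter (GRCm38.p6, chr13:54701354-54701473, plus strand) reads, with the motif in capitals, which begins 54 bases before the gene's start:
Cdhr2: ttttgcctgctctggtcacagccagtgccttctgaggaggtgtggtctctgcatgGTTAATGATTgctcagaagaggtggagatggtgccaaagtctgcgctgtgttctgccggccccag
That motif was searched on both strands and occurred in 58 of 18110 promoters of 300 bases (0.320%). A match is a description of the letters only.

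Tight junction genes separated in 13 of 21. Beside Cldn7, Cldn23 had a gap of at least 6.36-fold, Cldn15, a claudin that forms sodium pores, at least 5.80-fold, and Cldn4 at least 4.88-fold. Cldn15 was not even along the intestine: it read 1007 and 1739 units in ileum and 1784 and 2084 in jejunum at 28 and 4 months, against 258 and 312 in distal colon. Among the claudins whose ranges overlapped were Cldn1, Cldn2, Cldn5 and Cldn12. The summed signal of the list was 19674 to 26029.5 units in the intestine, against 9784 and 9150.4 in liver and 1793 and 1894 in spleen at 28 and 4 months.

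Goblet cell genes separated in 21 of 23, and 16 had a 2-fold gap, with none higher in liver and spleen. Zg16, a lectin of mucus and also of pancreatic granules, read 12736 to 16115 units in the intestine (median 15081). In liver it read 38.9 and 53.6 units at 28 and 4 months, and in spleen 59.2 and 1573. The 4-month spleen stood alone among these 4, and it set the gap of 8.10-fold. The same array carried signals of pancreatic acinar genes: the summed signal of 16 acinar genes was 19947 to 68683 units in the intestine, highest in jejunum, against 1775 and 2177 in liver at 28 and 4 months, 778 in the 28-month spleen and 28289.7 in the 4-month spleen. By segment the sum was 67511 and 68683 in jejunum, 19947 and 22364 in ileum and 35430 and 33265 in distal colon at 28 and 4 months. Which cells gave the intestinal sum was not tested, nor was the part of acinar cells in the values of Zg16.

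Hormone cells gave signals in all segments. Of 24 enteroendocrine genes 19 were higher in all intestinal arrays and 8 had a 2-fold gap. Chgb, a granin of secretory granules, read 1691 to 3530.5 units in the intestine (median 2191), against 21.2 and 18.3 units in liver and 15.9 and 14.2 units in spleen at 28 and 4 months, a gap of at least 38.02-fold. Chga separated by at least 8.77-fold, Scg2 by at least 5.56-fold and Tac1, the precursor of substance P that enteric neurons also make, by at least 5.42-fold. Hormones whose ranges overlapped liver and spleen included Gip, Nts, Ghrl and Insl5. Of the rarer tuft cells, 1 of 9 genes separated, Siglecf, and its signals reached no 2-fold gap. It read 48.3 and 71.2 units in jejunum at 28 and 4 months. In ileum and distal colon it was below the floor at 17.0 to 30.5 units, against at most 14.5 in liver and spleen.

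Of 21 crypt and Wnt target genes 8 were higher in all intestinal arrays, with Prom1, a membrane protein of cell protrusions, at 12.7-fold, Ascl2, a factor of stem cells, at 2.61-fold, Slc12a2, the sodium, potassium and chloride cotransporter, at 2.28-fold and Rgmb, a coreceptor of bone morphogenetic proteins, at 2.17-fold. Lgr5 and Olfm4 were among the 12 whose ranges overlapped. Bmi1, a polycomb protein, ran the other way, with 409 to 611 units in the intestine (median 554), against 778 and 704 units in liver and 1063 and 1074 units in spleen at 28 and 4 months. Its gap of 1.15-fold, liver and spleen over intestine, is small. Genes of cell division did not separate at all: for 0 of 22 was either side above the other throughout. Their summed signal was 9386 to 15684 units in the intestine, which lay between liver (3013 and 2570.04 at 28 and 4 months) and spleen (41158 and 30030.0).

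Mucosal antibody genes separated in 5 of 16. Ccl28, a chemokine that draws antibody-secreting cells, read 450.4 to 1115 units in the intestine (median 663), against 40.47 and 42.9 units in liver and 35.7 and 31.7 units in spleen at 28 and 4 months, a gap of at least 10.1-fold. Pigr, the receptor that carries IgA across epithelia, read 7814 to 10466 units in the intestine (median 8804). It had 6181 and 5920.3 units in liver and 28.4 and 26.02 in spleen at 28 and 4 months, and liver set its gap of 1.26-fold. For Igha, the heavy chain of IgA, spleen was the nearer organ. It read 11072 to 21685 units in the intestine (median 16159), against 639 and 59.6 units in liver and 9512 and 5666 units in spleen, and the 28-month spleen set its gap of 1.16-fold.

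Salt and water transport genes separated in 12 of 22, and 9 of them by 2-fold. Slc26a3, a chloride and bicarbonate exchanger, read 1766 to 5027 units in the intestine (median 3269.9), against 12.4 and 11.4 units in liver and 11.53 and 12.3 units in spleen at 28 and 4 months (at least 39.7-fold). Kcne3, a potassium channel subunit, had a gap of at least 14.4-fold, Cftr, the chloride channel of cystic fibrosis, at least 13.51-fold, and Fxyd3, a regulator of the sodium pump, 10.54-fold. Digestive enzymes and nutrient carriers separated in 9 of 28. Mep1b, a brush border metalloprotease, separated by at least 15.4-fold, Slc5a1, the glucose carrier, by 13.3-fold, Slc15a1, the peptide carrier, by at least 5.34-fold and Slc7a9, a cystine carrier, by at least 3.44-fold. Fabp2, the intestinal fatty acid binding protein, was among the 19 that overlapped. It read 15074 and 14671 units in ileum, 9744 and 13946 in jejunum and 434 and 1736 in distal colon at 28 and 4 months, against 1549.9 and 1937 in liver and 10.8 and 10.4 in spleen. Distal colon and liver overlapped, while the small intestine stood above both.

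Genes of smooth muscle also separated. Of 24 genes of smooth muscle contraction 19 were higher in all intestinal arrays, 13 by 2-fold, and 0 were higher in liver and spleen. Cnn1, calponin, read 666 to 4395 units in the intestine (median 1028), against 24.9 and 21.4 units in liver and 44.8 and 53.53 units in spleen at 28 and 4 months, a gap of 12.4-fold. Actg2, the actin of visceral muscle, separated by 9.66-fold, Myh11, its myosin heavy chain, by 6.81-fold and Smtn, smoothelin, by at least 6.27-fold. Myl9, a regulatory light chain, had a gap of 2.996-fold. Its promoter is shown because, of 16 promoters searched, it was the 1 with a CArG box, the motif that serum response factor binds. The 16 belong to 15 of the 19 muscle genes higher in the intestine. Only 300 bases of each were searched, so boxes elsewhere in these genes would be missed. The RefSeq promoter (GRCm38.p6, chr2:156775248-156775367, plus strand) reads, with the box in capitals, which begins 161 bases before the start:
Myl9: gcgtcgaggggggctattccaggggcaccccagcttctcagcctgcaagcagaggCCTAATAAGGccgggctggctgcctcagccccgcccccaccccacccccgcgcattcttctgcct
A CArG box, searched on both strands, was in 245 of 18110 promoters (1.35%). In these pieces of tissue, more cells of a type and more RNA per cell cannot be told apart, for muscle as for epithelium.

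Enteric neurons and glia contributed 13 of 21 genes, with the ranges of the other 8 overlapping, and 1 had a 2-fold gap. The summed signal of the list did not separate liver from the intestine. It was 2172 to 4402 units in the intestine, 3244 and 3017 in liver and 980 and 970 in spleen at 28 and 4 months. Vip, a neuropeptide that relaxes gut muscle, read 523 to 1517 units in the intestine (median 811), against 15.6 and 17.8 units in liver and 15.6 and 14.7 units in spleen at 28 and 4 months (at least 11.8-fold). Ret, the receptor that enteric neurons need to develop, Snap25, a protein of synaptic release, and Gal, the peptide galanin, had gaps of at least 1.83-fold, at least 1.74-fold and 1.65-fold. Interstitial cells of Cajal and gut fibroblasts gave 11 of 18, among them Hhip, an inhibitor of hedgehog signals (at least 5.05-fold), and Bmp4, a growth factor of the mesenchyme (2.40-fold). Of the ligands that epithelium and mesenchyme exchange 7 of 17 separated, including Ihh, the hedgehog ligand of the epithelium, (at least 3.59-fold), and the ephrins Efnb1 (2.91-fold) and Efnb2 (2.13-fold).

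Hox genes, which set position along the body axis, separated in 7 of 23, none by 2-fold. Hoxa5 had the widest gap of the list at 1.72-fold, with 222 to 388 units in the intestine (median 306), against 99.8 and 129 units in liver and 107 and 87.02 units in spleen at 28 and 4 months. Matrix genes separated towards the intestine in 14 of 30 and towards liver and spleen in 1. The 4 widest were Fbln1, a fibulin (at least 6.31-fold), Tnc, tenascin (at least 5.96-fold), and the collagen VI chains Col6a2 (5.69-fold) and Col6a1 (4.34-fold). Col14a1 was the exception, with 286 to 532 units in the intestine (median 319), against 630.4 and 585 units in liver and 615 and 825 units in spleen.

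Lists of other cells that the pieces could hold were counted as well. Mesothelium and skeletal muscle gave 5 of 10, Krt19 included, with summed signals of 6888 to 9963 units in the intestine, against 423 and 418 in liver and 550 and 545 in spleen at 28 and 4 months. Most of the intestinal sum was the signal of Krt19, described above as a keratin of simple epithelia. The sum is therefore no measure of mesothelium or skeletal muscle in the pieces. Of adipocyte genes 1 of 10 was higher in the intestine and 1 higher in liver and spleen, and of mast cell genes 2 of 8 were higher in the intestine. Their part in the results above was not tested.

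**Figure D3:**
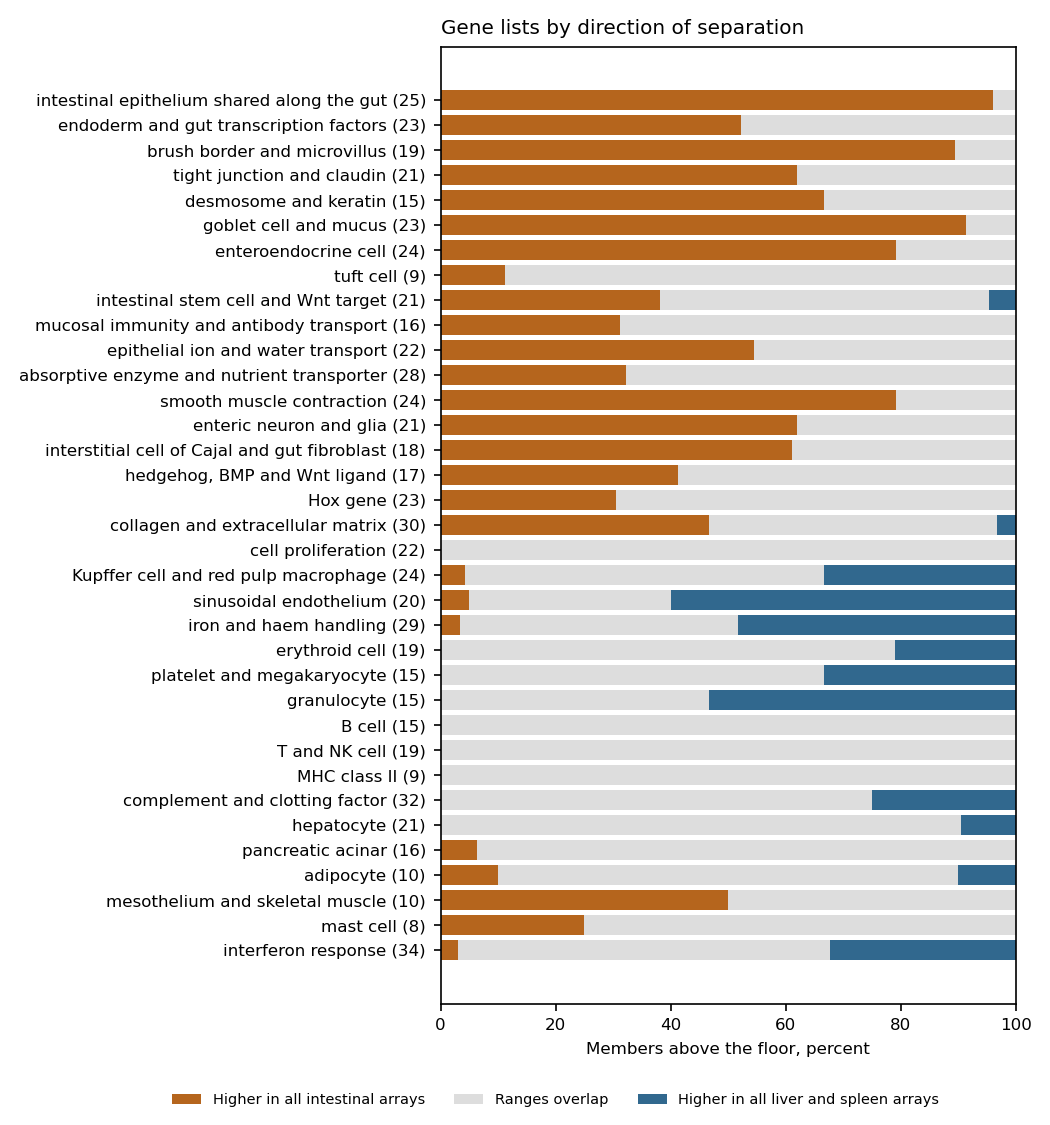
Share of each list's members above the floor (percent, horizontal) that were higher in all intestinal arrays, overlapped, or were higher in all liver and spleen arrays, with the number of members above the floor in parentheses. More than 3 of 4 members of the epithelial, goblet and muscle lists were higher in all intestinal arrays. Towards liver and spleen 12 of 20 sinusoid, 8 of 15 granulocyte (0 by 2-fold), 14 of 29 iron and 11 of 34 interferon genes separated. From the B cell, T cell, MHC class II and cell division lists 0 genes did so in either direction.

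Among the genes higher in both liver and spleen, Cd5l had the widest gap. Cd5l, which tissue macrophages secrete, read 20.8 to 26.3 units in the intestine (median 24.05), against 2096 and 1025 units in liver and 1925 and 1408 units in spleen at 28 and 4 months. All intestinal arrays were below the floor, and the gap, liver and spleen over intestine, was at least 23.05-fold. Of 24 listed genes of Kupffer cells, the liver macrophages, and of red pulp macrophages of the spleen, 8 were higher in all liver and spleen arrays, 3 by 2-fold, and Hpgd, which inactivates prostaglandins, was higher in the intestine (1.51-fold).

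Hmox1, which breaks down haem, read 37.49 to 62.2 units in the intestine (median 49.3), against 309 and 141 units in liver and 1127 and 1322 units in spleen at 28 and 4 months. The lowest of the 4, the 4-month liver, set its gap of 2.26-fold. Marco, a scavenger receptor, had 24 to 29.6 units in the intestine (median 25.3) and a gap of at least 1.91-fold, set by the same array at 84.9 units. Fcna, a ficolin that binds microbial sugars, had a gap of 2.001-fold. Of general macrophage genes, Adgre1 separated by 1.28-fold, and the ranges of Csf1r, Cd68, Itgam, Mertk and C1qa overlapped.

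Sinusoidal endothelium gave 12 of 20 genes, the highest share of the lists on this side, with 6 by 2-fold. Stab2, a scavenger receptor for hyaluronan, read 21.8 to 35.2 units in the intestine (median 27.6), against 613 and 534 units in liver and 678 and 856 units in spleen at 28 and 4 months, a gap of at least 12.01-fold. Clec1b, a lectin receptor of platelets that is also listed for sinusoids, read 12.2 to 17.4 units in the intestine (median 15.6), against 366 and 291 units in liver and 569.9 and 433 units in spleen (at least 6.53-fold). Clec4g, a lectin of liver sinusoids, had at most 32.6 units in the intestine, against 1753 and 1766 units in liver and 296 and 221 units in spleen (at least 4.96-fold). Fcgr2b, the inhibitory Fc receptor, was uneven in the intestine, with at most 119 units in small intestine and 289 and 343 in distal colon, against 1254 and 999 units in liver and 1185 and 1265 units in spleen (2.92-fold). With probe sets that can read several transcripts left out, the ranges of Fcgr2b overlapped. Cd34, a marker of capillary endothelium, ran the other way with the intestine higher by 1.54-fold.

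Iron and haem genes were higher in all liver and spleen arrays for 14 of 29, 9 by 2-fold. Alas2, the first enzyme of haem synthesis in red cell precursors, read 25.02 to 41.7 units in the intestine (median 34.8), against 834 and 881 units in liver and 3456 and 2766 units in spleen at 28 and 4 months. Spleen was higher than liver at both ages, the intestine was below the floor, and the gap was at least 18.7-fold. Cp, the ferroxidase ceruloplasmin, reached at most 149 units in the intestine, against 9833 and 9142 units in liver and 656 and 599 units in spleen (4.03-fold). Blvrb, a biliverdin reductase, separated by 3.39-fold and Hp, haptoglobin, by 3.38-fold. Heph, a ferroxidase through which enterocytes export iron, was the 1 gene of this list higher in the intestine, with 837 to 2436 units in the intestine (median 1992), against 29.1 and 25.3 units in liver and 14.6 and 21.8 units in spleen (at least 18.8-fold). The ferroxidases Heph and Cp thus lay on opposite sides.

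The promoter of Alas2 is shown because it held the motif given next and the gene had the widest gap of the list towards liver and spleen. From RefSeq (GRCm38.p6, chrX:150547274-150547393, plus strand) it reads, with the reverse complement of AGATAA, a motif that GATA factors bind, in capitals at 86 bases before the start:
Alas2: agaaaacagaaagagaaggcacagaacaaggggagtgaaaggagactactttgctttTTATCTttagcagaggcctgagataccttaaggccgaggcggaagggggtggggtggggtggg
AGATAA was searched on both strands. It was in 1465 of 18110 promoters (8.09%) and in 2 of the 17 promoters of the iron list's liver and spleen genes (11.8%).

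Blood cell lists were counted the same way. Of 19 erythroid genes 4 were higher in liver and spleen, of 15 platelet genes 5, and of 15 granulocyte genes 8, while 0 of their genes above the floor were higher in the intestine. By 2-fold it was 1, 1 and 0. Erythroid sums were 2206 to 17045 units in the intestine, against 1455 and 1431 in liver at 28 and 4 months. Platelet sums were 1154 to 2077, against 1422 and 1080, and granulocyte sums 497 to 635, against 5435 and 610. Spleen held 35580 and 27426.5 units for erythroid, 13035 and 10188 for platelet and 18823 and 7626 for granulocyte genes. In none of these lists did liver exceed the intestinal sums at both ages. Klf1, the erythroid Krüppel factor, read 39.51 to 58.1 units in the intestine (median 49.8), against 162 and 127 units in liver and 2001 and 1364 units in spleen at 28 and 4 months (2.19-fold). S100a8, a calcium-binding protein of neutrophils, had 41.9 units at most in the intestine, against 349 and 55.02 units in liver and 6436 and 2907 units in spleen. Its gap of at least 1.24-fold rests on the 4-month liver, which was near the floor. Selp, P-selectin, had a gap of 1.83-fold and Itga2b, a platelet integrin, 1.26-fold. Lists of B cells, T and NK cells and MHC class II gave 0 of 15, 0 of 19 and 0 of 9 in either direction. With the median over probe sets in place of the brightest, 3 of the 19 T and NK genes were higher in liver and spleen. Summed B cell signals were 706 to 2517 units in the intestine, against 785 and 573 in liver and 22649 and 29339 in spleen at 28 and 4 months.

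Some plasma proteins of hepatocytes met the rule. Of 32 complement and clotting genes 8 separated towards liver and spleen, all with gaps under 2-fold, and of 21 hepatocyte genes 2 did. F10, clotting factor X, read 22.7 to 34.9 units in the intestine (median 28.8), against 3076 and 2949.6 units in liver and 115 and 69.99 units in spleen at 28 and 4 months. Itih3, a plasma protein that binds hyaluronan, had 22.7 to 37.6 units in the intestine (median 28.3), against 9203 and 6311 units in liver and 68.8 and 52.4 units in spleen. Serpina1b, an alpha-1-antitrypsin, read 62.54 to 451 units in the intestine (median 204), against 17215 and 17779.9 units in liver and 2644 and 2422 units in spleen, a gap of 5.38-fold. It has close copies in the mouse genome whose transcripts its probes may also read.

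Several metabolic genes were among the 15 widest on this side. Hebp1, which binds haem, read 208 to 231 units in the intestine (median 214), against 3552 and 3969.9 units in liver and 1957 and 1890.1 units in spleen at 28 and 4 months, a gap of 8.19-fold. The intestinal signals were nearly level. Cmah, which hydroxylates sialic acid, separated by 7.52-fold, Kmo, an enzyme of kynurenine metabolism, by 6.37-fold, Abcb4, the phosphatidylcholine transporter of bile canaliculi, by 5.43-fold, and Paqr9, a membrane receptor of the progestin and adipoQ receptor family, by at least 5.505-fold. Hhex, a homeobox factor of liver and blood cells, had 59.49 to 161 units in the intestine (median 84.7), against 1840.4 and 2667 units in liver and 992 and 1567 units in spleen (6.17-fold). Plxnc1, a semaphorin receptor (7.88-fold), and 1300017J02Rik (at least 7.09-fold) complete the set.

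Interferon response genes, a list added after the values had been seen, were higher in all liver and spleen arrays for 11 of 34, with 8 by 2-fold and 1, Oas1a, in the other direction by 1.04-fold, a gap that was lost when arrays were centred on one median. Iigp1, an immunity-related GTPase, read 155 to 299 units in the intestine (median 238), against 6316 and 7220.1 units in liver and 1477 and 1473 units in spleen at 28 and 4 months, a gap of 4.93-fold. Igtp, a GTPase of the same family, had 317 to 396 units in the intestine (median 349) and Irgm2, another, 158 to 242. In liver and spleen Igtp read 1485 to 2529 units and Irgm2 829 to 1002, gaps of 3.75-fold and 3.42-fold. Bst2, tetherin, which holds viruses at the cell surface, read 169 to 274 units in the intestine (median 238), against 2000.5 and 1587 units in liver and 737 and 735 units in spleen (2.68-fold). The plot of liver and spleen genes by array shows that both organs carried these transcripts.

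**Figure D4:**
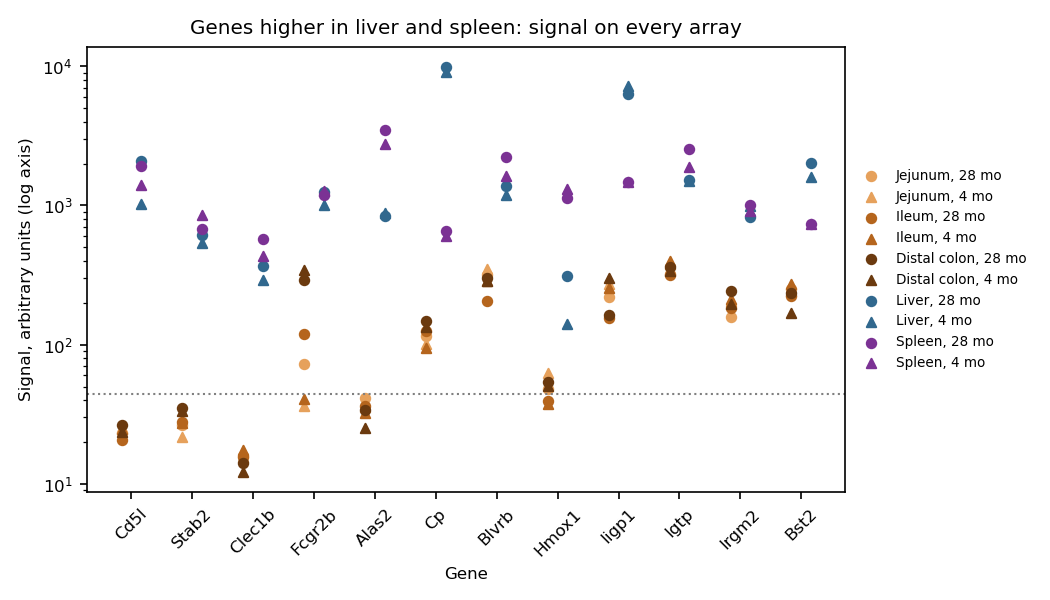
Signal (log axis, arbitrary units) of 12 genes that were higher in liver and spleen, with the intestinal arrays left and the liver and spleen arrays right at each gene, circles for 28 months and triangles for 4 months. The dotted line is the floor of 44.5 units, which Cd5l, Stab2, Clec1b and Alas2 do not reach in the intestine.

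Promoters of this list are shown because they share a motif. The core of the element that interferon-activated factors bind, GAAA, any 2 bases, then GAAA, was searched on both strands and found in 6 of the 8 promoters available for its 11 liver and spleen genes (75%), against 548 of 18110 promoters (3.03%). The list was made of genes known to respond to interferon, so the share describes the list and not the contrast. From RefSeq (GRCm38.p6), with each match in capitals, the stretches around it for Irgm1 (chr11:48871383-48871502, minus strand), Igtp (chr11:58199467-58199586, plus strand), Irgm2 (chr11:58214858-58214977, plus strand), Bst2 (chr8:71537535-71537654, minus strand), Cxcl10 (chr5:92349038-92349139, minus strand) and Stat2 (chr10:128270248-128270340, plus strand) read:
Irgm1: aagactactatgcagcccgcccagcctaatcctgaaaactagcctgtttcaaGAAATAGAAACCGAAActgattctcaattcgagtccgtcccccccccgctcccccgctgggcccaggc
Igtp: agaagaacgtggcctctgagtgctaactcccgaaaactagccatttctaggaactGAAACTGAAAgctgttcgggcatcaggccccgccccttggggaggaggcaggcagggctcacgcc
Irgm2: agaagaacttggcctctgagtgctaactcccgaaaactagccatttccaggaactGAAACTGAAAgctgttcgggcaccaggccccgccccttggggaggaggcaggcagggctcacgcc
Bst2: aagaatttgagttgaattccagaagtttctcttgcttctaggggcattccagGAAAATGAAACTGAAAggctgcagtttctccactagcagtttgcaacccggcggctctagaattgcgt
Cxcl10: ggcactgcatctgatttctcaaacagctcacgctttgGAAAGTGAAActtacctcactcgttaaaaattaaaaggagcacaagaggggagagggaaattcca
Stat2: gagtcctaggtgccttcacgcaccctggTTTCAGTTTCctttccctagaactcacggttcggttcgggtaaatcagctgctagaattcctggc
In Stat2 the match lies on the other strand, so its reverse complement is in capitals. Matches begin 30 and 24 bases before the start in Irgm1, 34 in Igtp and 64 in Irgm2, and further upstream in Bst2 (130 and 124), Cxcl10 (213) and Stat2 (222). The windows of Igtp and Irgm2, both on chromosome 11, are the same at 117 of 120 positions (97.5%), and the signals of such close copies may mix. Over all members, promoters were listed for 395 of the 525 intestinal genes (497 promoters) and 57 of the 74 liver and spleen genes (70 promoters). The intestinal ones held a median of 13 CpG pairs in 300 bases and the liver and spleen ones 10.5. The median was 16 for all 18110 promoters and 19 for genes above the floor that separated in neither direction.

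Whether the shared intestinal genes were even along the gut was tested, since the rule sets no order among segments. One linear model in limma took a mean for each tissue and an age term for the intestine and another for liver and spleen, over 13973 genes. Here the ages of a tissue stand in for replicates, so p-values measure the spread between these pooled arrays and not between mice, and the number of arrays limits the precision. Small intestine, the mean of jejunum and ileum, differed from distal colon for 6000 genes (42.9%) at an adjusted p below 0.05, 2075 higher (14.9%) and 3925 lower (28.1%) in small intestine. Without the 4-month distal colon array 2885 genes passed, 566 of them higher in the intestine. Of 2197 tested genes higher in the intestine, 465 rose in small intestine and 592 fell there, and of the 525 with a 2-fold gap 161 rose and 134 fell. Within the 525, 250 genes (47.6%) had less than 2-fold between their lowest and highest intestinal array, and 223 passed neither the test of small intestine against colon nor that of ileum against jejunum. The test against colon called 56.2% of the 525, against 42.9% of all genes. The 525 were selected by their lowest intestinal signal, which bears on how even they are, and the range was not counted over all genes. The 250 are therefore a description.

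By list the directions differed. In the absorptive list 27 genes of 28 rose in small intestine and 0 fell, whether or not they met the rule, with a median of 4.19 on the log2 scale, against -0.08 for all genes. In the brush border list 15 of 19 rose and 0 fell. Smooth muscle genes went the other way, with 0 higher and 22 of 24 lower in small intestine than in colon, and matrix genes likewise with 1 and 24 of 30. How much muscle each piece held cannot be told apart from the segment it came from. Goblet genes were mixed, with 3 higher and 9 lower of 23, as were enteroendocrine genes with 9 and 5 of 24. The plot of segment differences shows the members of these lists that were higher in all intestinal arrays.

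**Figure D5:**
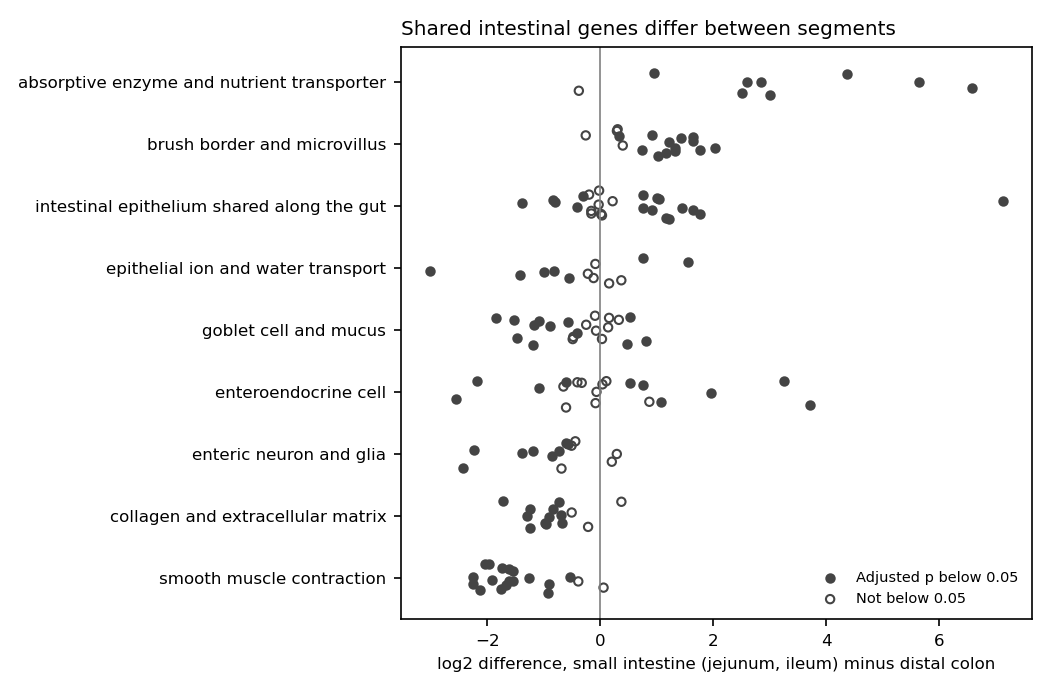
Difference between small intestine and distal colon (log2, horizontal) for genes higher in all intestinal arrays, by list (rows), with filled points for an adjusted p below 0.05 in limma. Most absorptive and brush border genes lie to the right of 0, most smooth muscle and matrix genes to the left.

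Ang4, an antibacterial angiogenin of Paneth cells, had the largest rise in small intestine of all members higher in the intestine. It read 5502 and 7618 units in ileum and 6036 and 6461 in jejunum at 28 and 4 months, against 38.1 and 43.6 in distal colon, below the floor, so it was at least 143-fold higher (adjusted p = 2.83e-05 in limma with signals raised to the floor). The genes that follow are the largest among members with all 6 intestinal signals above the floor. Lgals2, a galectin, led them. It read 11377 and 11287 units in ileum and 10659 and 10756 in jejunum at 28 and 4 months, against 84.52 and 72.1 in distal colon. Its colon signals were near the highest of liver and spleen, 50.3 units (log2 difference 7.14 ± 0.14 SE, limma adjusted p = 7.09e-07). Itln1, the lectin intelectin, had 7123 and 9699.8 units in ileum and 8735 and 8174 in jejunum at 28 and 4 months, against 58.2 and 73.1 in distal colon (adjusted p = 1.33e-06 in limma). Pla2g2a, a secreted phospholipase with antibacterial action, differed by 5.90 ± 0.49 and Guca2b, the hormone uroguanylin, by 4.59 ± 0.22. 2010106E10Rik and Ms4a10 completed these 6. With probe sets that can read several transcripts left out, the intestinal range of Lgals2 overlapped its range in liver and spleen, and that of Mboat1 did too.

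On the colonic side Sval1, for which no role is given here, fell most in small intestine of all members higher in the intestine. It read 221 and 172 units in ileum and 34.7 and 34.8, below the floor, in jejunum at 28 and 4 months, against 6196 and 5484 in distal colon. Of members above the floor on all 6 arrays, Mboat1, an acyltransferase for phospholipids, read 279 and 128 units in ileum and 63.9 and 88.8 in jejunum at 28 and 4 months, against 1543 and 1543 in distal colon (log2 difference -3.69 ± 0.29 SE, limma adjusted p = 0.00016). Hsd11b2, which inactivates glucocorticoids in cells that respond to aldosterone, fell by 3.13 in small intestine (SE 0.29, adjusted p = 0.000309), and Pla2g10, another secreted phospholipase, by 3.03. S100a14, Tfcp2l1 and Tnni1 completed the 6 of this kind, the last a troponin of slow skeletal muscle. By contrast Klf5 (log2 difference -0.02 ± 0.14 SE), Cldn7 (-0.02 ± 0.13), Muc13 (0.03 ± 0.11) and Chgb (0.04 ± 0.16) did not pass the test, with adjusted p of 0.855 to 0.926.

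Within the small intestine, ileum differed from jejunum for 220 genes (1.57%), 91 higher (0.651%) and 129 lower (0.923%) in ileum. Of the genes shared by the intestine 32 rose in ileum and 18 fell. With signals raised to the floor 105 genes passed, 14 of the shared genes higher and 11 lower in ileum. Fabp6 had the largest rise of these 32, at least 242-fold higher (adjusted p = 0.000339 in limma with signals raised to the floor). Of members above the floor on all 6 intestinal arrays, Tmigd1, an adhesion protein of the brush border, read 9250.3 and 5545 units in ileum at 28 and 4 months, against 71.3 and 126 in jejunum (log2 difference 6.24 ± 0.86 SE, limma adjusted p = 0.0216). Mep1a, the alpha subunit of meprin, rose by 3.68 ± 0.46 SE, Gcg, the precursor of glucagon-like peptides, by 2.51 ± 0.44, and Slc51b, a subunit of the basolateral bile acid carrier, by 2.34 ± 0.39. These 4 calls were lost in the fit with signals raised to the floor, at adjusted p of 0.0588 to 0.141 in limma.

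S100g, the calcium-binding protein calbindin-D9k, fell most in ileum, with 131 and 100.1 units there at 28 and 4 months, against 3925 and 4954 in jejunum (log2 difference -5.27 ± 0.19 SE, limma adjusted p = 3.06e-05). Car9, a carbonic anhydrase, fell by 1.66 and Papss2, which makes the sulfate donor, by 1.93. The 4-month ileum array also carried genes of the upper small intestine at the level of jejunum. Lct, lactase, read 37.3 and 5569 units in ileum at 28 and 4 months, and 1446 and 5114 in jejunum. Gip, the incretin hormone, read 92.6 and 2610.3 units in ileum and 2396 and 2686 in jejunum, and Fabp1, a fatty acid binding protein, 412 and 12296 in ileum and 11559 and 13674 in jejunum. Of the 28 absorptive genes 11 were at least 2-fold lower in the 28-month than in the 4-month ileum and 1 at least 2-fold higher, while 197 and 125 of all 13973 genes were. In 1 array per age, a change with age and a piece or pool that held more of the upper small intestine cannot be told apart. Without that array 888 genes were called, 244 of them higher in the intestine, without the 28-month jejunum 57 and 8, without the 28-month ileum 121 and 25, and without the 4-month jejunum 141 in all. Without any 1 liver or spleen array 137 to 139 genes were called, 20 of them higher in the intestine.

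Genes higher in liver and spleen were also compared along the gut, where their signals were lower than in those organs. In small intestine 36 of 1038 tested rose (3.47%) and 264 fell (25.4%) relative to distal colon, against 14.9% and 28.1% of all genes. These genes passed the filter through their liver and spleen signals, so the shares are not like for like. All 6 intestinal signals were at or below the floor for 155 of the 1038, and 7 of the calls were among these. Instead of 300 calls there were 93 without the 4-month distal colon, 189 without the 28-month jejunum and 173 without the 4-month jejunum. Fcgr2b was the largest fall, log2 difference -2.40 ± 0.32 SE, limma adjusted p = 0.00146, with 2 of its 4 small intestinal signals below the floor. Serpina1c was below it on all 4 and at least 1.76-fold lower (adjusted p = 0.0283 in limma with signals raised to the floor). St6gal1, a sialyltransferase, differed by -1.94 ± 0.13 SE. Cxcl12, a chemokine of stromal cells, had -1.75 ± 0.16 and Rdx, the membrane linker radixin, -1.69 ± 0.11. C6, a complement component, rose most but was below the floor in distal colon, so it was at least 1.69-fold higher (adjusted p = 0.0147 in limma with signals raised to the floor). Adgre4, a receptor of myeloid cells, was also below it there, and its call was lost with signals raised to the floor (adjusted p = 0.25). Distal colon held the highest intestinal signal of 39 of the 74 genes with a 2-fold gap, a count that takes in 13 genes at or below the floor throughout the intestine. Between ileum and jejunum 1 gene rose, Serpina1b, and 3 fell, Clu, Fabp5 and Gpcpd1, the last 2 not in the fit with signals raised to the floor (adjusted p = 0.0807 and 0.0802). Clu, clusterin, read 552 and 466 units in ileum at 28 and 4 months, against 2371 and 1731 in jejunum (adjusted p = 0.000246 in limma).

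On the other side, liver differed from spleen for 9067 genes (64.9%), 4077 higher (29.2%) and 4990 lower (35.7%) in liver. Among genes higher in the intestine 506 rose in liver and 458 fell, and with signals raised to the floor 438 and 377 did. These genes passed the filter through their intestinal signals, and 528 of the 2197 were at or below the floor on all 4 liver and spleen arrays, 53 of them among the calls. Of the 525 with a 2-fold gap 173 were, and for these the test says little. Of the other 352, 109 rose in liver, 106 fell and 137 did not pass. Without the 4-month liver 638 genes higher in the intestine passed, and without the 4-month spleen 641. Tmem30b, a subunit of lipid flippases, read 1917 and 1988 units in liver at 28 and 4 months, against 18.2 and 16.6 in spleen, below the floor, and was at least 43.9-fold higher (adjusted p = 1.95e-06 in limma with signals raised to the floor). Spleen was below the floor for Pigr, Krt8 and Dsp, desmoplakin, as well, and liver was at least 136-fold, 58.4-fold and 35.4-fold higher. The highest of the 4 liver and spleen signals was a liver one for 301 of the 525 genes and a spleen one for 224. That count takes in the 173 at or below the floor on all 4, for which the order of the organs says little. In the opposite direction Myb, a factor of dividing progenitors, read 20.7 and 18.4 units in liver at 28 and 4 months, against 592 and 719 in spleen. Liver was below the floor, and Myb was at least 14.7-fold lower (adjusted p = 1.74e-05 in limma with signals raised to the floor). Igha fell by 5.23, Ezr, ezrin, by 4.06 and Pycard, an inflammasome adaptor, by 3.96, a call that was lost with the median over probe sets.

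Levels in liver and in spleen were then compared for the genes high in both. Of the 74 with a 2-fold gap 35 rose in liver and 20 fell, and 19 did not pass. The next genes are among the largest differences of all members above the floor in liver and spleen, whatever their gap. Azgp1, a plasma glycoprotein, read 8900.1 and 9201 units in liver at 28 and 4 months, against 52.99 and 46.3 in spleen, at the edge of the rule (log2 difference 7.51 ± 0.16 SE, limma adjusted p = 8.47e-08). Apoc1, an apolipoprotein, rose by 6.36 ± 0.18 SE and had a gap of 2.42-fold. Among those that fell in liver were S100a8 (-4.96 ± 0.33), Klf1 (-3.53 ± 0.18), Marco (-3.05 ± 0.51) and Timd4, a receptor for dying cells (-2.95 ± 0.38). Cd5l, Stab2, Plxnc1 and Irgm2 of the 74 did not pass, with differences of -0.17 ± 0.19, -0.41 ± 0.17, -0.45 ± 0.26 and -0.08 ± 0.19 SE.

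The ages were first taken apart. With the 28-month arrays alone 650 genes were higher in the intestine by 2-fold, with the 4-month arrays alone 663, and 548 in both, which is 84.3% of the first and 82.7% of the second. Towards liver and spleen the numbers were 132, 115 and 77 (58.3% and 67.0%). In limma 0 genes passed the test of 28 against 4 months in the intestine, in liver and spleen, or of the difference of these age effects (0.0% called in each). The 28-month intestinal arrays are numbered apart from all the others. Age in the intestine, and the difference of the age effects, therefore cannot be told apart from anything else that sets those arrays apart. The same holds for the intestinal ratios and values by age given below. At an unadjusted p below 0.05 there were 1313, 803 and 802 genes. With either distal colon array left out 5 genes passed in the intestine. Some genes also passed in liver and spleen, and for the difference, when a liver or a spleen array was left out. Without a liver array that age term is the difference between the spleen arrays alone, and without a spleen array that between the liver arrays. Its spread then comes from the intestinal arrays, so those calls are not an age effect shared by liver and spleen. Among the 525 intestinal genes the ratio of 28 over 4 months, with no replicate and no test, reached 2-fold in jejunum for 0 genes upward and 19 downward (3.62%), where 30 and 130 of all 13973 genes did (1.15%). In ileum it did for 17 and 9 (4.95%), against 125 and 197 of all genes (2.30%), and in distal colon for 0 and 7 (1.33%), against 67 and 62 (0.923%). These shares are not like for like. The 525 were selected to be above the floor on every intestinal array, while the 13973 need only 1 array above it. A gene at the floor at both ages cannot reach 2-fold, since signals were raised to the floor.

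Genes with a 2-fold gap above the floor at 1 age but not at the other are given as values, and were picked after the values had been seen. Reg3b, an antibacterial lectin, read 15268 and 15029 units in ileum and 2442 and 7372 in jejunum at 28 and 4 months. In distal colon it read 34.2 units at 28 months and 4238 at 4 months, so it had the gap at 4 months only. Reg3g, Alpi, the intestinal alkaline phosphatase, Slc51a and Isx, a homeobox factor, shared that pattern, each below the floor in the 28-month distal colon. Alpi read 34.1 units there, against 397 at 4 months.

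At 28 months alone Ceacam10, an adhesion molecule, had the gap towards the intestine. Its jejunum signal was 339 units at 28 months, against 30.4, below the floor, at 4 months. Clps, pancreatic colipase, and Sycn, a protein of acinar granules, also had it at 28 months alone. Clps read 166 to 4596 units in the intestine, against 9.66 and 9.71 in liver and 8.99 and 2164 in spleen at 28 and 4 months. Sycn read 144 to 13636 in the intestine, against 33.7 and 36.4 in liver and 29.6 and 1014 in spleen, so both were high in the 4-month spleen, the array with the high acinar sum. Towards liver and spleen Prtn3, a neutrophil protease, Usp18, an interferon-induced protease, and Socs3, an inhibitor of cytokine signals, had the gap at 28 months alone. Prtn3 read 47.2 units at most in the intestine, against 456 and 31.8 in liver and 321 and 73.7 in spleen at 28 and 4 months. Socs3 read 145 to 359.7 units in the 28-month intestine and 374 to 584 in the 4-month intestine, against 804 and 339.5 in liver and 888 and 403 in spleen at 28 and 4 months.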

How the data were processed

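The deposited value table holds log2 signals of 10 arrays that the authors made with MAS5 in the affy package, per the submitters' processing notes. How the arrays were scaled is not stated there. Values were used unscaled, 1 array per tissue and age. Of 45101 probe sets 34958 have 1 gene, 932 have several and 9211 are not named here. Each of 18194 genes was read by its probe set of highest mean signal. The fit used R 4.3.3 and limma 3.58.1 with a trended prior and Benjamini-Hochberg adjustment over 13973 genes with a signal above the floor, called at 0.05. Other steps used Python 3.11.15, numpy 2.4.6 and pandas 2.3.3, and the steps were tested on simulated data. Names and promoters come from RefSeq tables (GRCm38.p6).

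The members and lists were chosen with earlier results of these data known, and the interferon list was added after its values were seen. Named genes are the 15 of widest gap per direction, up to 4 per list, up to 6 per contrast and direction among members above the floor on their own side, the largest member of all where it was not, those near the limit, those of the label check and list members that ran the other way. Genes named beyond that rule, such as those with a promoter shown, were chosen after their values were seen. Alternatives changed scaling, floor, probe set, gap, filter and arrays. Leaving out the 28-month intestinal arrays, which are numbered apart from the others, was added after seeing the data. It gave 2742 intestinal genes, 611 by 2-fold, and 1705 liver and spleen genes, 87 by 2-fold.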

Additional observations from a re-analysis of the deposited data

How the results depend on the processing

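With the floor at percentile 75 the 2-fold gap held for 289 intestinal and 39 liver and spleen genes, at a gap of 1.5-fold for 825 and 166, and at 3-fold for 320 and 29. With the 4-month arrays alone 2311 genes were higher in liver and spleen, 115 by 2-fold, with the 28-month arrays alone 2846 and 132, and without distal colon 2159 and 149. Without liver the intestinal counts were 4791 and 1113 and the spleen counts 4383 and 888. Without spleen the intestinal counts were 4985 and 1071 and the liver counts 4129 and 832. With signals raised to the floor, ileum against jejunum gave 105 genes, 25 higher in the intestine and 2 higher in liver and spleen. With the floor at percentile 75, 5 enteric neuron, 2 Hox, 0 tuft and 0 mast cell genes were higher in the intestine, and 5 granulocyte genes and 1 hepatocyte gene in liver and spleen. Without probe sets that can read several transcripts 11 brush border, 3 mesothelium and 0 adipocyte genes were higher in the intestine, with the median over probe sets 3 T and NK genes and 1 mast cell gene in liver and spleen, and with the floor at percentile 25 1 erythroid gene in the intestine. These settings hold fewer arrays or another threshold by construction, and otherwise the cause was not tested.

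Leaving out 1 array at a time gave 2384 to 2549 intestinal genes, 530.0 to 565 by 2-fold, and 1226 to 1565 liver and spleen genes, 74 to 100.0 by 2-fold. Calls for age ranged from 0 to 5 in the intestine (0 to 0 among its own genes), 0 to 22 in liver and spleen (0 to 4 among intestinal genes, 0 to 3 among liver and spleen genes) and 0 to 20 for the difference (0 to 3 and 0 to 2). For small intestine against colon they ranged from 2885 to 5803 (566 to 1036 and 93 to 279), for ileum against jejunum from 57 to 888 (8 to 244 and 2 to 14), and for liver against spleen from 6951 to 9131 (638 to 988 and 381 to 569). A tissue left with 1 array is assumed to vary like the others, and it adds nothing to an age term. Where a liver or spleen array was left out, the age calls for liver and spleen therefore rest on the other organ alone. The fit already compares the ages within each tissue, since it takes a mean per tissue, and its age terms take up what arrays of 1 age share within an organ class. No paired analysis was possible because replicate numbers that could serve as a further block are not in the labels, and each group is 1 array. The number of arrays and the floor limit what small differences can show.

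A negative gap means that the ranges overlapped. On the log2 scale the gap of Ogfr was -0.057 with arrays scaled to one trimmed mean, -0.021 with arrays centred on one median, -0.078 after quantile normalisation and -0.14 with the median over probe sets. Centring on the median gave -0.0076 for Oas1a, -0.017 for Tnni1 and -0.025 for Azgp1, and quantile normalisation -0.012 for Tnni1 and -0.028 for Azgp1. The median over probe sets gave -0.16 for Mterf3, -0.27 for Tfcp2l1 and -0.024 for Papss2. Without probe sets that can read several transcripts it was -0.23 for Fcgr2b, -0.37 for Mterf3, -0.068 for Lgals2 and -0.070 for Mboat1.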
